A study of Mus musculus with 9 samples.

Results

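The subject is a set of 10 heat shock chaperone genes in mouse embryonic fibroblasts of the C57BL/6 strain that carried a lentivirus for p21, a lentivirus for p16 or a control lentivirus (EV in the titles). Each of the 3 groups held 3 libraries, and RNA was taken on day 10. The labels call the cells senescent, the control libraries included, and do not name the promoter of the vectors. The sample titles, however, use the word senescent only for the p21 and p16 libraries. The p16 libraries were entered in the record separately from the other 6. Whether they were also prepared apart is not stated, so such a difference cannot be told apart from p16. The genes Hspa1a, Hspa1b, Hspa8, Hsph1, Hsp90aa1, Hspb1, Hspd1, Hspe1, Dnajb1 and Bag3 were found by symbol and are 10 of the 24062 genes counted. All 10 passed the filter on low counts, as did 14572 genes in all. They were chosen by name with earlier results of these same 9 libraries known, and which measured values guided the choice is not recorded. Their values are therefore a description, with standard errors and no p-value. The set is not wholly cytosolic, since Hspd1 and Hspe1 encode chaperones of the mitochondrial matrix.

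Heat shock proteins hold other proteins in a state from which they can fold. HSP70 binds unfolded stretches in a cycle driven by ATP. J-domain proteins such as Dnajb1 start the cycle, and exchange factors such as Hsph1 and Bag3 end it. HSP90 takes over many clients late in folding, and small heat shock proteins such as Hspb1 hold unfolded proteins without ATP. Under stress the transcription factor HSF1 forms trimers and binds the heat shock element, a run of GAA units in alternating orientation, at the promoters of many of these genes. Hspa8 is the form of HSP70 made in unstressed cells, and Hspa1a and Hspa1b are the inducible forms.

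Promoter letters are shown for the genes whose values differ most and for the pair that shares a control region. They are RefSeq sequences on GRCm38.p6, read 5′ to 3′ on the gene's strand, with positions counted from the first transcribed base. Capitals mark letters that match the heat shock element with 2 or more units. Windows of 300 bases were given for 8 of the 10 genes, and Hspa8 and Hsp90aa1 had none. The windows of Hspa1a and Hspa1b differed at 4 of 300 bases, and at 0 of the 100 bases shown (chr17:34972207-34972306 and chr17:34959289-34959388, both on the minus strand, positions -150 to -51). The 100 bases of Hspb1 at the same positions lie at chr5:135887769-135887868 on the plus strand. The 30 bases of Hspe1 and of Hspd1 are the 2 strands of 1 stretch, chr1:55088053-55088082.
Hspa1a: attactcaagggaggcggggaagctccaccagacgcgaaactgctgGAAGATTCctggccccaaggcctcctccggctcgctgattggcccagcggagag
Hspa1b: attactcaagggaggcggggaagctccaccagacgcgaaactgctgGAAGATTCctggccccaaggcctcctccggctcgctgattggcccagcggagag
Hspb1: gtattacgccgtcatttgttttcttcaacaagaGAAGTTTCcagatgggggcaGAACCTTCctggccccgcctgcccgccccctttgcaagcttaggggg
Hspe1: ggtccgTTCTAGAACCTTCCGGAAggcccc
Hspd1: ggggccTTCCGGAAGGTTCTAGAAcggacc

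The motif was searched on both strands in its 2-unit forms, GAANNTTC and TTCNNGAA, and its 3-unit forms, GAANNTTCNNGAA and TTCNNGAANNTTC. Each 3-unit match contains 2 overlapping 2-unit matches. Of 32851 promoter windows in the RefSeq table, 15.1% held a 2-unit match and 0.603% a 3-unit match, and of the 27025 genes they belong to, 17.0% and 0.662% did so in any window. Of the 8 chaperone genes with a window, 7 held a 2-unit match and 3 a 3-unit match, namely Hsph1, Hspd1 and Hspe1. The run shared by Hspe1 and Hspd1 is 18 bases long (chr1:55088059-55088076) and holds both 3-unit forms. It ends 72 bases before the Hspe1 start and 127 bases before the inner of the 2 Hspd1 starts, and by GENCODE M21 it lies within an exon of Hspd1. Hspa1a and Hspa1b each held 1 match, 104 bases before the start. Hspb1 held 2, at 117 and 97 bases before it. In Bag3 the match lay after the start, at positions 43 to 50, and in Hsph1 the letters TTCTGGAAAGTTC did so. Neither Dnajb1 window held a match, which says only that these letters are not in them.

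Library totals ran from 56864342 to 76054820 counts. Cdkn1a, which encodes p21, averaged 1130 ± 76.4 CPM in p21, 419.5 ± 22.3 CPM in p16 and 366.2 ± 43.6 CPM in control libraries (SD, n = 3), and Cdkn2a, the p16 gene, 95.6 ± 16.7, 1017 ± 64.6 and 63.1 ± 5.03 CPM. CPM are counts scaled to a common library size after TMM, which trims the most changed genes. The 8 fibroblast markers summed to 29431 to 33125 CPM in p21, 30729 to 35609 in p16 and 25125 to 36556 in control libraries. For p21 over control 1 of these markers passed the test as higher and 1 as lower, which the sum does not show. The 8 macrophage markers summed to 20.0 to 35.8, 6.65 to 11.1 and 8.48 to 10.6 CPM. Of these markers 5 passed the test as higher in p21 than in control libraries, beside 19.3% of all genes. In p21 over p16, 4 passed as higher, beside 6.19% of all genes. The 6 skeletal muscle markers summed to 194.2 to 232.2, 149 to 159.3 and 78.2 to 106.2 CPM, nearly all of it the filament gene Des. Endothelial (5 markers, at most 4.43 CPM) and epithelial (5, at most 10.0 CPM) sums were low in all groups. The part of these cell types in the results was not tested, and in bulk RNA fewer cells of a type and less RNA per cell cannot be told apart. Xist was high and Y-linked Ddx3y low in replicate 3 of all 3 groups, and the reverse held in the other 6 libraries. The replicate 3 libraries were not alike in this. Ddx3y had 10.8 CPM in that of p21, 1.26 CPM in that of p16 and 1.10 CPM in that of control. Xist had 158, 262 and 397 CPM in the same order, and the cause was not tested.

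The inducible HSP70 genes stood higher in p16 cells than in both other groups, and were the only members to do so in every library. Hspa1a (chromosome 17, 34969190 to 34972156, minus strand, a single exon, GENCODE M21 on GRCm38) had 6.76, 6.60 and 6.18 CPM in p21 libraries, 13.5, 12.5 and 12.4 CPM in p16 libraries, and 7.43, 7.39 and 7.07 CPM in control libraries. The 3 groups did not overlap, with p16 highest and p21 lowest. How many of all genes separate in this way was not counted, so non-overlap here and below is a description only. The counts behind these levels were 353 to 491 reads per p21 library, 823 to 850 per p16 library and 507 to 570 per control library. The fitted log2 difference was 0.81 ± 0.074 (SE) for p16 over control, or 1.75-fold, and -0.16 ± 0.075 for p21 over control. For p21 over p16 it was -0.97 ± 0.075, so Hspa1a was 1.96-fold lower in p21 cells.

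Hspa1b (chromosome 17, 34956436 to 34959238, minus strand, a single exon) lies 9951 bases from Hspa1a and encodes a near-identical protein. It had 45.5, 48.7 and 44.5 CPM in p21 libraries, 65.7, 65.7 and 55.2 CPM in p16 libraries, and 46.5, 47.9 and 38.9 CPM in control libraries. All p16 libraries lay above the other 6, while p21 and control libraries overlapped. The log2 difference was 0.49 ± 0.091 for p16 over control (1.4-fold), 0.06 ± 0.091 for p21 over control and -0.43 ± 0.091 for p21 over p16. The log2 difference of p16 over control was smaller in Hspa1b than in Hspa1a, whose printed promoter letters are the same, and this gap between the copies was not tested.

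The balance of the copies differed between groups. Hspa1b had 7.11 ± 0.332 counts per Hspa1a count in p21 libraries, 4.87 ± 0.401 in p16 libraries and 6.08 ± 0.509 in control libraries (SD, n = 3), and the groups' ranges did not overlap. Of 50-base windows along the Hspa1a transcript, 58.8% occur letter for letter in the Hspa1b transcript, and how reads that fit both copies were counted is not given in the sources used here. The split between the copies is therefore uncertain, as is 19% of the exon length of Hspa1a, which an opposite-strand gene overlaps and which the unstranded kit cannot separate. Summed and fitted as 1 gene, an alternative chosen after seeing the data, the copies differed by 0.54 ± 0.084 log2 units for p16 over control (1.45-fold), 0.03 ± 0.084 for p21 over control and -0.51 ± 0.084 for p21 over p16. Together they amounted to 2.14 ± 0.0425% of the Hspa8 count in p21 libraries, 2.97 ± 0.096% in p16 libraries and 2.07 ± 0.195% in control libraries.

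**Figure D1:**
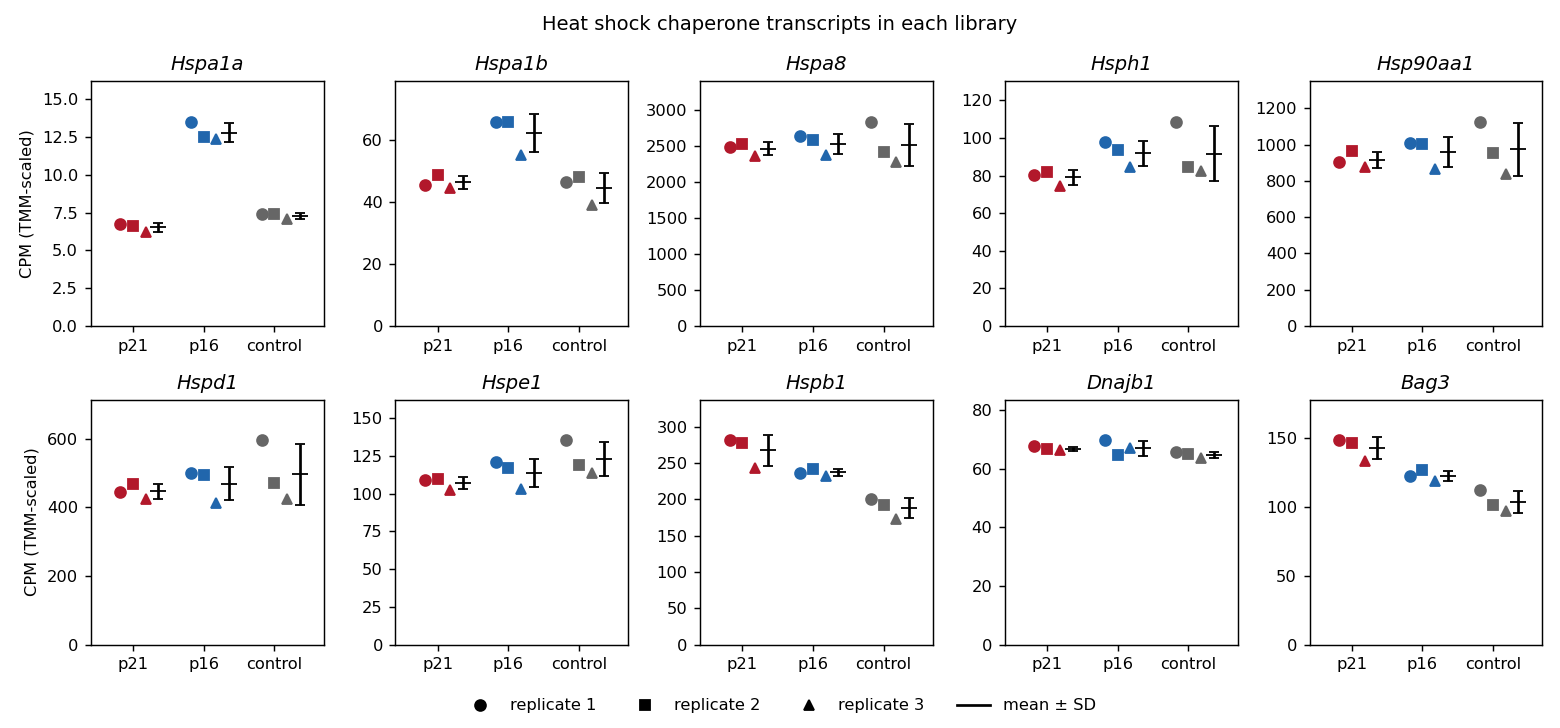
Level of each of the 10 transcripts in every library (vertical axis, TMM-scaled CPM, from 0), by group, with mean ± SD over 3 libraries beside the points. Hspa1a and Hspa1b are highest in the p16 libraries, Hspb1 and Bag3 descend in steps through p21, p16 and control, and control replicate 1 is the highest library for Hspa8, Hsph1, Hsp90aa1, Hspd1 and Hspe1.

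Hspb1 and Bag3 formed a second pattern, with p21 highest, p16 between and control lowest. Hspb1 (chromosome 5, 135887919 to 135889563, plus strand) encodes HSP25, a small heat shock protein that also binds actin. It had 281, 278 and 243 CPM in p21 libraries, 237, 242 and 233 CPM in p16 libraries, and 200.2, 192 and 173 CPM in control libraries. No 2 groups overlapped, but p21 replicate 3 lay only narrowly above p16 replicate 2. The log2 difference was 0.51 ± 0.069 for p21 over control (1.42-fold), 0.33 ± 0.069 for p16 over control (1.26-fold) and 0.17 ± 0.069 for p21 over p16. Of its transcript windows 51.6% occur letter for letter in the pseudogene Hsp25-ps1, so its level is uncertain to that extent.

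Bag3 (chromosome 7, 128523616 to 128546981, plus strand) joins HSP70 to small heat shock proteins and steers their clients to autophagy. It had 148.4, 146 and 134 CPM in p21 libraries, 123, 127 and 119 CPM in p16 libraries, and 112.5, 102 and 96.9 CPM in control libraries. Again no 2 groups overlapped. The log2 difference was 0.46 ± 0.065 for p21 over control (1.38-fold), 0.24 ± 0.065 for p16 over control (1.18-fold) and 0.22 ± 0.065 for p21 over p16. None of its 50-base windows occur in another gene's transcript, so its counts carry no such doubt.

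Dnajb1 (chromosome 8, 83608193 to 83612653, plus strand), the J-domain partner of the inducible HSP70 proteins, was nearly level. It had 67.7, 66.6 and 66.4 CPM in p21 libraries, 69.7, 64.6 and 67 CPM in p16 libraries, and 65.6, 65.2 and 63.7 CPM in control libraries. The p21 libraries lay above the control libraries narrowly, with a log2 difference of 0.05 ± 0.044, and p16 libraries overlapped both other groups. Bag3 counts per Dnajb1 count were 2.13 ± 0.106 in p21 libraries, 1.83 ± 0.111 in p16 libraries and 1.6 ± 0.102 in control libraries.

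**Figure D2:**
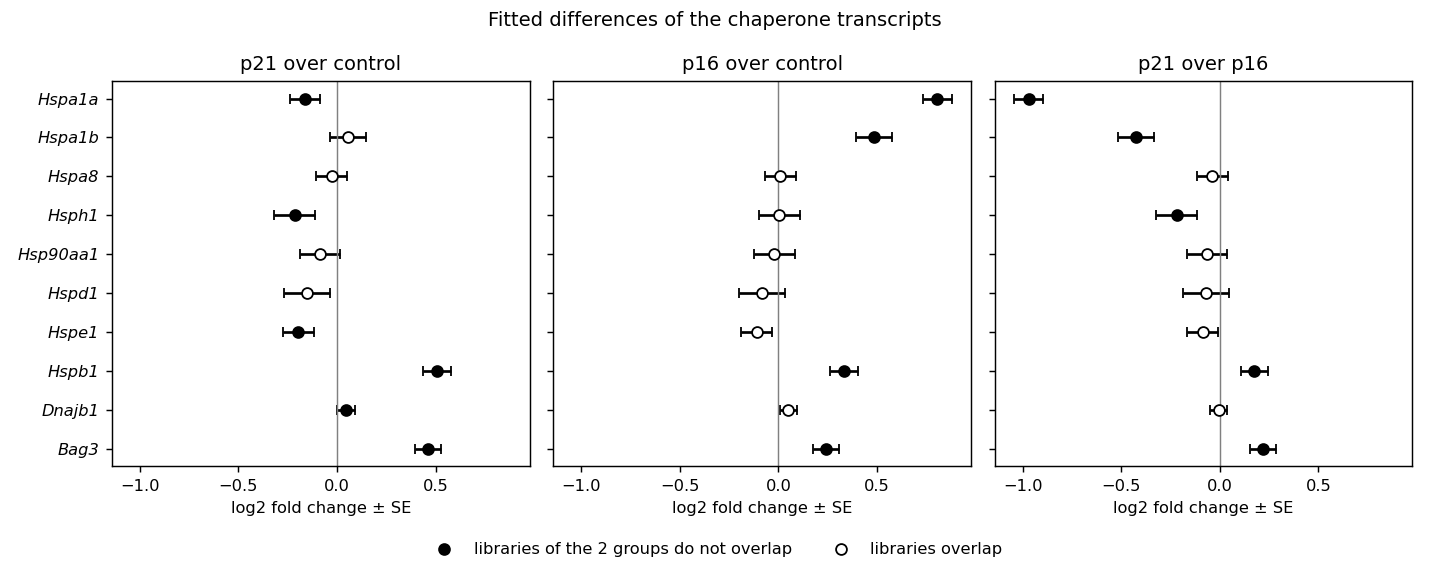
Fitted log2 fold change ± SE of each transcript (horizontal axis) for p21 over control, p16 over control and p21 over p16, filled where the libraries of the groups do not overlap. The share of all genes without overlap was not counted. Hspa1a stands at 0.81 for p16 over control and at -0.97 for p21 over p16, and Hspb1 and Bag3 lie right of 0 in all 3 panels.

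The remaining 5 genes, the most abundant chaperones among them, differed little between groups. Hspa8 (chromosome 9, 40800984 to 40810087, plus strand) had 2489, 2529 and 2365 CPM in p21 libraries, 2630.0, 2580.2 and 2366 CPM in p16 libraries, and 2832, 2417 and 2273 CPM in control libraries. All groups overlapped, and the log2 difference was -0.03 ± 0.08 for p21 over control and 0.01 ± 0.08 for p16 over control. Hsp90aa1 (chromosome 12, 110690605 to 110702728, minus strand), the inducible HSP90 gene, had 904.6, 967 and 879 CPM in p21 libraries, 1011, 1006 and 864 CPM in p16 libraries, and 1126, 957 and 838 CPM in control libraries. Its log2 differences were -0.09 ± 0.10 and -0.02 ± 0.10 against control. The groups overlapped here too.

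Hsph1 (chromosome 5, 149614287 to 149636376, minus strand) encodes HSP110, an exchange factor for HSP70. It had 80.3, 82.1 and 74.7 CPM in p21 libraries, 97.8, 93.5 and 84.8 CPM in p16 libraries, and 108.6, 84.4 and 82.2 CPM in control libraries. The p21 libraries lay below all others, narrowly so against control replicate 3. The log2 difference was -0.22 ± 0.10 for p21 over control, 0.0044 ± 0.10 for p16 over control and -0.22 ± 0.10 for p21 over p16.

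The mitochondrial chaperonin genes sit head to head on chromosome 1 (Hspd1, 55077835 to 55088243, minus strand, and Hspe1, 55088132 to 55091307, plus strand) and share the element printed above. Hspd1, which encodes HSP60, had 446, 469.6 and 425 CPM in p21 libraries, 499, 493 and 414 CPM in p16 libraries, and 595, 470.4 and 424 CPM in control libraries. Hspe1, which encodes its lid HSP10, had 109, 109.5 and 102.5 CPM in p21 libraries, 120.7, 117 and 103 CPM in p16 libraries, and 135, 119 and 114 CPM in control libraries. For Hspd1 all groups overlapped, and for Hspe1 the p21 libraries lay below the control libraries. The log2 difference for p21 over control was -0.15 ± 0.12 in Hspd1 and -0.20 ± 0.078 in Hspe1, and for p16 over control -0.08 ± 0.12 and -0.11 ± 0.078. Hspd1 had 4.17 ± 0.101 counts per Hspe1 count in p21 libraries, 4.12 ± 0.0987 in p16 libraries and 4.03 ± 0.343 in control libraries, so the pair kept nearly 1 ratio.

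These 5 genes also shared a library effect. Control replicate 1 was the highest of the 9 libraries for Hspa8, Hsph1, Hsp90aa1, Hspd1 and Hspe1, and it ranked from 4 to 7 for the other 5 genes. The effect was not particular to the set. Among further chaperone genes described below, the same library was highest for Hsp90ab1, Fkbp4, Dnajc9 and Hspa14, though not for all such genes. Without it, the log2 difference for p21 over control became 0.0021 in Hspd1, 0.07 in Hspa8, 0.03 in Hsp90aa1, -0.07 in Hsph1 and -0.12 in Hspe1. In Hsp90ab1, Fkbp4, Dnajc9 and Hspa14 it became -0.18, -0.51, -0.54 and -0.27, against -0.25, -0.62, -0.67 and -0.33 with all libraries. The median over the 10 genes was -0.06 for p21 over control with all libraries and 0.05 without control replicate 1. For p16 over control it was 0.03 with all libraries and 0.13 without control replicate 1. Letter-for-letter copies in other genes' transcripts, mostly pseudogenes, cover 73.2% of the windows of Hspa8, 58.5% of Hsp90aa1, 44.8% of Hspd1, 36.1% of Hspe1 and 0% of Hsph1.

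**Figure D3:**
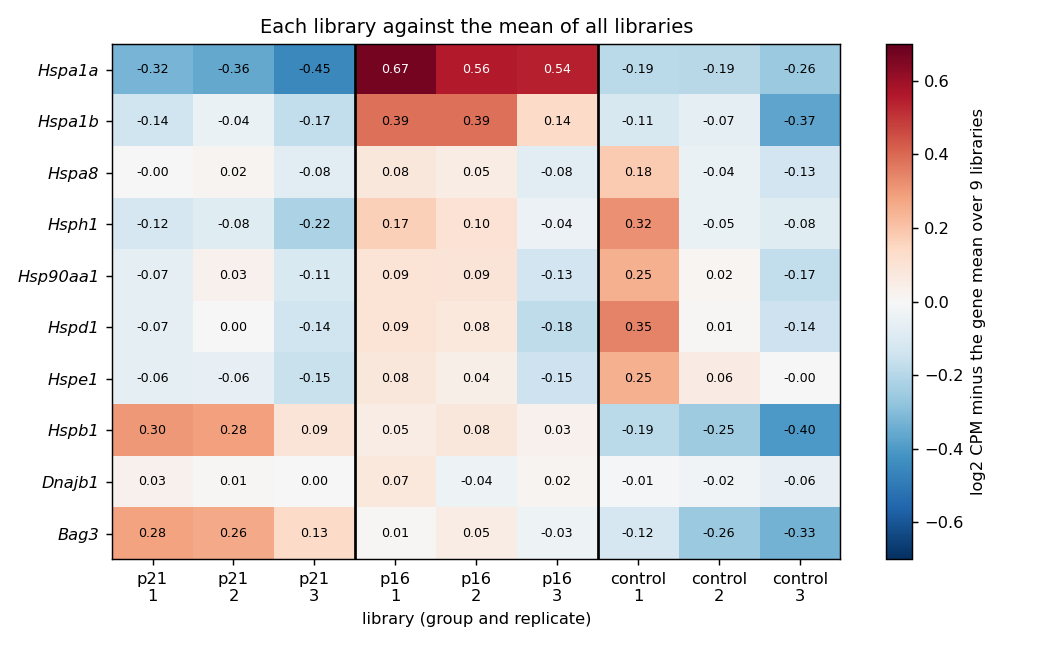
Each cell gives the log2 CPM of a gene in a library minus that gene's mean over the 9 libraries, with p21 libraries left, p16 in the middle and control right. Hspa1a reaches 0.67 in p16 replicate 1, and Hspd1 reaches 0.35 in control replicate 1.

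Counts past the threshold, an adjusted p under 0.05 over all genes tested, are given beside the background share, and nothing is read from them for genes chosen in this way. For p21 over control 2 of the 10 genes were past it, Hspb1 and Bag3, both higher, where 39.9% of all genes were past it, 19.3% higher and 20.7% lower. For p16 over control 3 were past it, Hspa1a, Hspa1b and Hspb1, all higher, against 7.22% of all genes, 3.57% higher and 3.65% lower. For p21 over p16 2 were past it, Hspa1a and Hspa1b, both lower, against 12.8% of all genes, 6.19% higher and 6.64% lower. With the replicate block 4 were past it for p16 over control, with Bag3 added as higher, where 2473 of all 14572 genes were past it. For p21 over p16 the block gave 5, with Hspb1 and Bag3 added as higher and Hsph1 as lower. Of all genes 3496 were then past it. Bag3 was also past the threshold as higher for p16 over control with DESeq2, with the 1 CPM filter and without control replicate 1. For p21 over p16 it passed with library size alone, the 1 CPM filter, DESeq2 or the 2 groups alone. It passed there too with replicates 1 and 2 alone or without p21 replicate 3, as did Hspb1. Hspe1 passed as lower for p21 over control with library size alone, with replicates 1 and 2 alone or without control replicate 3. Hspa1a stayed past it without any 1 library in both comparisons with p16. Hspa1b did not without p16 replicate 1 or 2 in both of these, or without p21 replicate 1 in the second, and the count was then 1. Of all genes, 290 and 219 were past it for p16 over control without p16 replicate 1 and 2. For p21 over p16 there were 798 and 879 without these libraries, and 616 without p21 replicate 1. Hspb1 in p16 over control did not without control replicate 2 or any 1 of the p16 libraries, where the count was 1 or 2. Without control replicate 2 there were 387 genes past it in all, and 431 without p16 replicate 3. The comparisons with control share the control libraries. The median log2 difference of the 10 genes was -0.06, 0.03 and -0.07 in the comparisons as ordered here, and that of all genes tested -0.01, -0.0097 and -0.0066.

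Levels of different genes were compared as CPM per kilobase of exon (union of GENCODE M21 exons). The order depends on this length. It was 7266 bases for Hsph1, 4301 for Hspa8 and 1474 for Hspe1, whose longest coding transcripts have 3802, 2394 and 774 bases. These genes therefore stand lower here than by transcript length, and the place of Hsph1 below Dnajb1 and Hspa1b is not secure. In control libraries the order from the top was Hspa8 (583 ± 67.4), Hsp90aa1 (248 ± 36.7), Hspd1 (188 ± 33.5), Hspb1 (183 ± 13.6), Hspe1 (83.2 ± 7.62), Bag3 (40.5 ± 3.12), Dnajb1 (20.2 ± 0.316), Hspa1b (15.9 ± 1.72), Hsph1 (12.6 ± 2.02) and Hspa1a (2.46 ± 0.0669). The ranges of Hsp90aa1 and Hspd1, of Hspd1 and Hspb1, and of Hspa1b and Hsph1 overlapped between neighbours, and the others did not. In p21 libraries Hspb1 stood at 259.6 ± 20.5 CPM per kilobase, which overlapped Hsp90aa1 (233 ± 11.4) and lay above Hspd1 (169 ± 8.44). In p16 libraries Hspa1b stood at 22.2 ± 2.17 CPM per kilobase and overlapped Dnajb1 (20.95 ± 0.799). Within a library, Hspb1 amounted to 29.2 ± 1.76% of the Hsp90aa1 count in p21 libraries, 24.8 ± 1.88% in p16 libraries and 19.5 ± 1.5% in control libraries. The 10 genes together took 0.436 to 0.458% of the counts of p21 libraries, 0.433 to 0.488% of p16 libraries and 0.42 to 0.527% of control libraries.

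**Figure D4:**
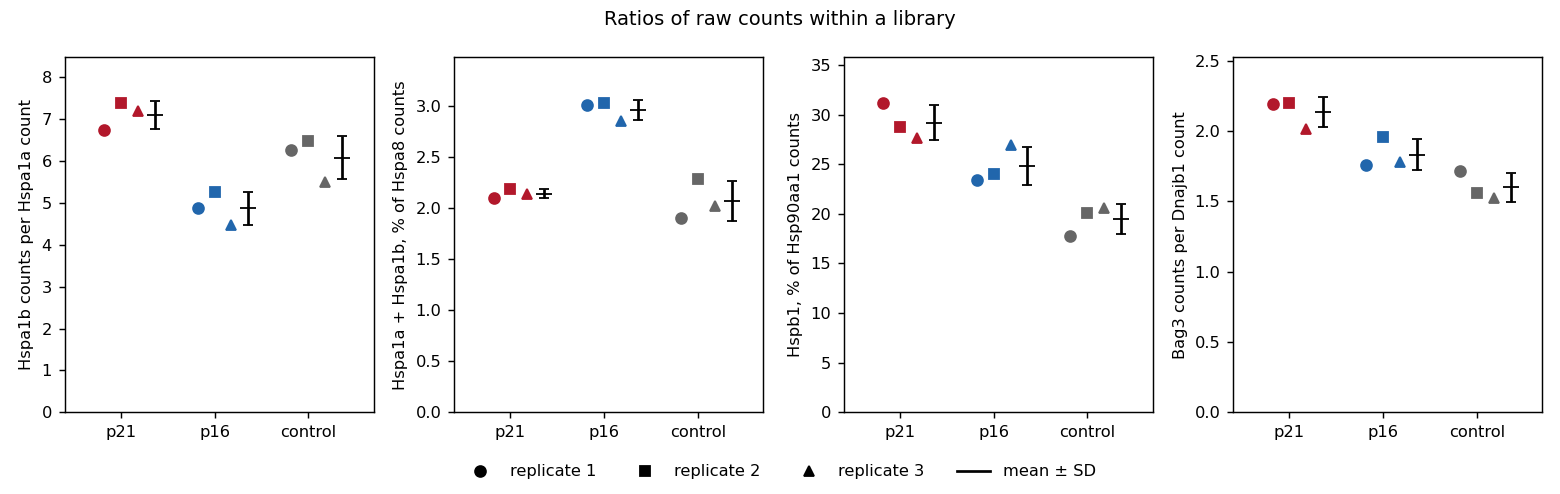
Ratios of raw counts within each library, from 0, by group, with mean ± SD over 3 libraries. Hspa1b per Hspa1a is lowest in p16 libraries (4.87 ± 0.401), the inducible pair relative to Hspa8 is highest there (2.97 ± 0.096%), and Hspb1 relative to Hsp90aa1 and Bag3 relative to Dnajb1 are highest in p21 libraries.

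The rest of the chaperone network was read from a list of 79 further genes, of which 77 passed the filter. The small heat shock protein genes Hspb3 and Cryaa did not, at no more than 0.193 CPM in any library. This list too was chosen with earlier results of these same libraries known. Its calls, shares and adjusted p-values, here and below, are therefore a description and no independent test. For p21 over control 14 rose and 17 fell by edgeR's quasi-likelihood test, 40.3% of the list beside the background of 39.9%, with a median log2 fold change of -0.04. For p16 over control 2 rose and 2 fell, and for p21 over p16 5 were higher and 3 lower. These are 5.19% and 10.4% of the list, beside 7.22% and 12.8% of all genes, with medians of -0.04 and 0.00038. With the replicate block the p16 count was 15 and the p21 over p16 count 14, where 2473 and 3496 of all genes were called. Without p21 replicate 1 the p21 over control count was 20. For p16 over control the count was 0 without p16 replicate 1 or 2 or control replicate 2, and 1 without p16 replicate 3. The p21 over p16 count was 1 without p21 replicate 1 or p16 replicate 1, 3 without p21 replicate 2 or p16 replicate 3, and 5 without p16 replicate 2. Calls over all genes fell in these fits too. They fell to 4233 for p21 over control, 219 to 431 for p16 over control and 616 to 961 for p21 over p16.

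The heat shock factor genes themselves did not pass the test. Hsf1 averaged 53.1 ± 1.49 CPM in p21, 50.6 ± 0.395 CPM in p16 and 52.6 ± 2.3 CPM in control libraries (SD, n = 3), with adjusted p = 0.816 for p21 over control and 0.504 for p16 over control (edgeR). Hsf2, a second factor of the family, averaged 16.1 ± 0.556, 15.9 ± 0.899 and 15.96 ± 1.76 CPM in the same groups (adjusted p = 0.948 and 0.973). The sign changed under some alternatives for Hsf2 in both comparisons and for Hsf1 in p21 over control. Of the 4 genes in this group only Hsbp1, whose product binds HSF1 trimers, passed. It averaged 109.4 ± 4.56 CPM in p21, 90.2 ± 1.17 CPM in p16 and 81.8 ± 3.86 CPM in control libraries, 1.34-fold higher for p21 over control (log2 0.42 ± 0.051 SE, adjusted p = 0.000233). It was also higher for p21 over p16 (log2 0.28, adjusted p = 0.00882).

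Of 5 other small heat shock protein genes tested, 3 rose for p21 over control, beside 19.3% of all genes, and the median log2 fold change of the 5 was 0.66. Cryab, which encodes alpha-B crystallin, had 197, 202 and 168 CPM in p21 libraries, 137, 147 and 119 CPM in p16 libraries, and 108, 100.3 and 87.3 CPM in control libraries. No 2 groups overlapped, and Cryab was 1.92-fold higher for p21 over control (log2 0.94 ± 0.10, edgeR adjusted p = 0.000138), 1.36-fold for p16 over control (adjusted p = 0.0332) and 1.41-fold for p21 over p16 (adjusted p = 0.0158). The p16 call was lost without control replicate 2 or 3 or p16 replicate 1 or 2 (adjusted p from 0.0676 to 0.128), and the p21 over p16 call without p21 replicate 1 or 2 or p16 replicate 1 or 3 (0.0502 to 0.0694). Hspb7, known from muscle, averaged 11.1 ± 2.32 CPM in p21, 8.63 ± 0.689 CPM in p16 and 5.98 ± 1.79 CPM in control libraries, and rose 1.85-fold with p21 (adjusted p = 0.00873). Hspb2, a partner of Hspb3, was scarce, at 1.06 ± 0.086 CPM in p21 and 0.668 ± 0.178 CPM in control libraries. Its call (adjusted p = 0.0438) was lost in 9 of 13 alternatives. Hspb8, which binds Bag3, averaged 75.3 ± 1.2 CPM in p21, 71.1 ± 6.34 CPM in p16 and 65.6 ± 6.53 CPM in control libraries, without a call (adjusted p = 0.0803 for p21 over control). The muscle filament gene Des moved with these genes, at 209.6 ± 19.7 CPM in p21, 153 ± 5.46 CPM in p16 and 87.4 ± 15.6 CPM in control libraries, and its part in the result was not tested.

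Of 15 genes of HSP90 and its partners, 6 passed for p21 over control and all 6 fell, beside 20.7% of all genes, and the median log2 fold change of the 15 was -0.07. Hsp90ab1, the constitutive HSP90 gene, had 2238, 2272 and 2195 CPM in p21 libraries, 2471, 2412 and 2305 CPM in p16 libraries, and 2908, 2564 and 2512 CPM in control libraries. It was lower for p21 over control (log2 -0.25 ± 0.06, edgeR adjusted p = 0.00856) and did not pass for p16 over control (-0.15, adjusted p = 0.156). The inducible Hsp90aa1 amounted to 41.0 ± 1.35% of the Hsp90ab1 count in p21 libraries, 40.0 ± 2.25% in p16 libraries and 36.5 ± 2.77% in control libraries. Fkbp5 and Fkbp4 encode immunophilins that carry steroid receptors with HSP90. Fkbp5 was 1.56-fold lower (25.5 ± 2.07 CPM in p21 against 39.8 ± 2.66 CPM in control libraries, adjusted p = 0.000373). Fkbp4 was 1.54-fold lower (100 ± 3.39 CPM in p21 against 154 ± 19.8 CPM in control libraries, adjusted p = 0.000447), and Ppid, a cyclophilin, 1.23-fold lower (adjusted p = 0.0052). Fkbp4 was also 1.3-fold lower for p16 over control (118 ± 6.06 CPM in p16 libraries, adjusted p = 0.0297), a call lost without control replicate 2 or any 1 of the p16 libraries (0.0678 to 0.109). Fkbp5 was lower for p21 over p16 (log2 -0.36, adjusted p = 0.0242), and did not pass without p21 replicate 1 or 2 or p16 replicate 1 or 3 (0.05 to 0.112).

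Of 8 other HSP70 family genes 2 rose and 1 fell for p21 over control, which is 37.5% called beside 39.9% of all genes. Hspa2, a form best known from testis, averaged 19.9 ± 1.22 CPM in p21, 16.03 ± 0.0802 CPM in p16 and 13.4 ± 0.845 CPM in control libraries. It was 1.49-fold higher for p21 over control (edgeR adjusted p = 0.000202), and passed for p16 over control (0.0486) and p21 over p16 (0.0177). The p16 call was lost without any 1 of the 6 libraries (0.0651 to 0.145), and the p21 over p16 call without p21 replicate 1 or any 1 of the p16 libraries (0.0539 to 0.0845). Hspa12a, a distant relative, was 1.44-fold higher for p21 over control (10.5 ± 0.711 CPM in p21 against 7.27 ± 0.392 CPM in control libraries, adjusted p = 0.00105). It was also higher for p21 over p16 (adjusted p = 0.0363), which no longer passed without any 1 of the 6 libraries (0.0581 to 0.127). Hspa14, which works at the ribosome, was 1.26-fold lower (adjusted p = 0.00244).

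Of 13 J-domain genes 6 rose and 2 fell for p21 over control, which is 61.5% called beside 39.9% of all genes, of which 19.3% were higher and 20.7% lower. Dnajc5, a chaperone of secretory vesicles, averaged 162 ± 3.21 CPM in p21, 142 ± 1.72 CPM in p16 and 134 ± 2.28 CPM in control libraries, 1.2-fold higher (edgeR adjusted p = 0.000684). Dnaja4 was 1.34-fold higher (adjusted p = 0.00426). Dnajc9, which escorts histones, was 1.59-fold lower (25 ± 0.971 CPM in p21 against 39.9 ± 6.31 CPM in control libraries, adjusted p = 0.000568). Both Dnajc5 (adjusted p = 0.0148) and Dnajc9 (0.0175) passed for p21 over p16, and these calls were lost without p21 replicate 1 or p16 replicate 1. That of Dnajc5 was also lost without p21 replicate 2 (0.057 to 0.0694) and that of Dnajc9 without p16 replicate 2 (0.054 to 0.0774). The cycling marker Mki67 was 2.53-fold lower in p21 than in control libraries, and its part in the Dnajc9 value was not tested. Of 8 BAG and other partner genes 1 rose and 2 fell, 37.5% beside the same 39.9%. Bag2 was 1.21-fold higher (114 ± 5.88 CPM in p21 against 94.1 ± 4.42 CPM in control libraries, adjusted p = 0.00563) and Bag5 1.23-fold lower (adjusted p = 0.00275). Bag5 was lower for p21 over p16 as well (adjusted p = 0.0351), lost without p21 replicate 1 or 2 or p16 replicate 1 or 3 (0.103 to 0.127). The exchange factor gene Hspbp1 was 1.22-fold lower for p21 over control (adjusted p = 0.0283), lost without control replicate 1 or p21 replicate 1 or 3 (0.0856 to 0.113).

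**Figure D5:**
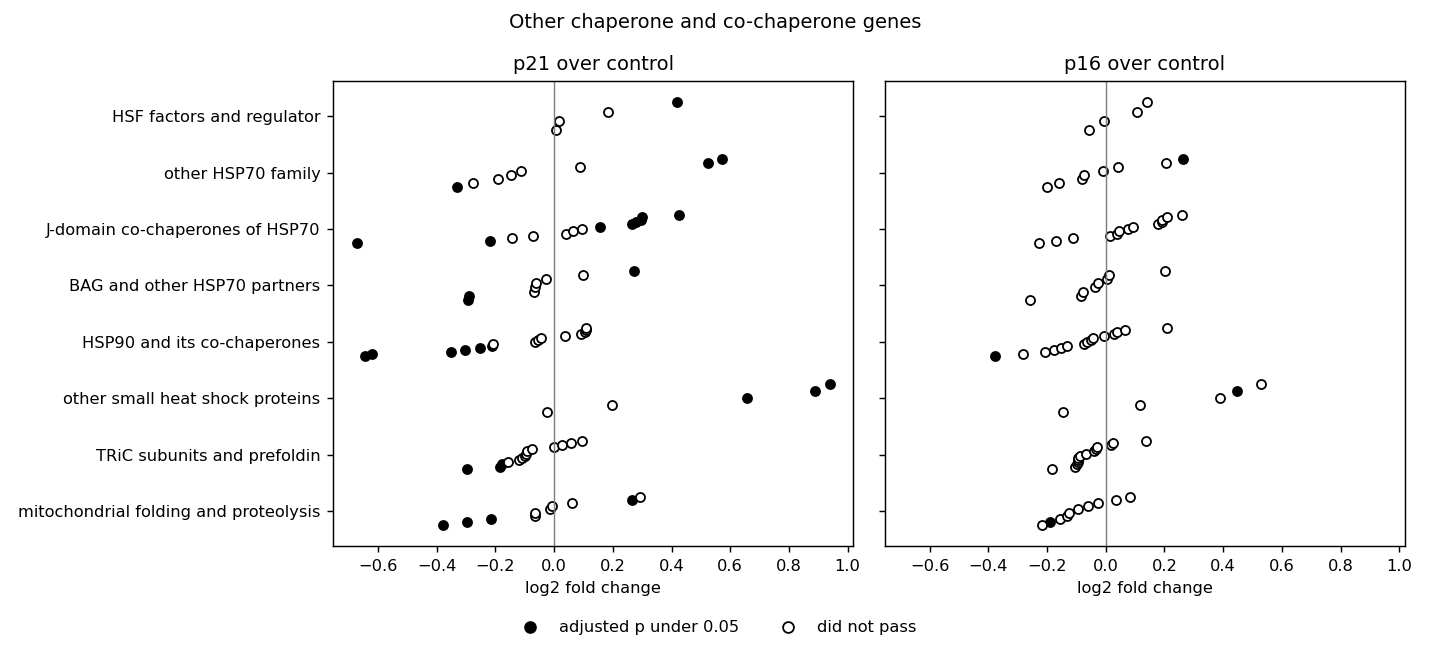
Log2 fold change (horizontal axis) of the 77 other chaperone and co-chaperone genes, by family, for p21 over control and p16 over control, filled where the adjusted p was under 0.05. Calls for p21 over control lie right of 0 for small heat shock proteins (3 of 5) and left of 0 for HSP90 and its co-chaperones (6 of 15) and TRiC and prefoldin (3 of 14), beside 19.3% of all genes higher and 20.7% lower.

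The cytosolic chaperonin TRiC, which folds actin and tubulin, and its helper prefoldin were tested as 14 genes. Of these 3 fell for p21 over control, or 21.4% of the list beside 20.7% of all genes, with a median log2 fold change of -0.10. They were H2-Ke2, an older symbol of the prefoldin gene Pfdn6 (log2 -0.30, edgeR adjusted p = 0.0218), Cct4 (-0.18, 0.0291) and Tcp1 (-0.18, 0.0401). Each call was lost without control replicate 1 or 2 or p21 replicate 1 or 3, and those of H2-Ke2 and Tcp1 also without p21 replicate 2 (adjusted p from 0.0513 to 0.127). With these 2 groups alone Cct4 (0.0626) and Tcp1 did not pass either, nor did Tcp1 with DESeq2 size factors (0.0544). Among 10 mitochondrial folding and protease genes 1 rose and 3 fell for p21 over control, a share called close to the 39.9% of all genes. Hspa9, the mitochondrial HSP70 that passes clients to Hspd1, had 504, 516 and 523 CPM in p21 libraries, 565.7, 547.4 and 546.5 CPM in p16 libraries, and 637, 623 and 634 CPM in control libraries. No 2 groups overlapped. Hspa9 was 1.23-fold lower for p21 over control (adjusted p = 0.000311) and lower for p16 over control (log2 -0.19, adjusted p = 0.02), the second call being lost without control replicate 2 or any 1 of the p16 libraries (0.0569 to 0.0888). The protease gene Lonp1 was 1.3-fold lower for p21 over control (adjusted p = 0.00343), and Grpel1, the exchange factor of Hspa9, 1.2-fold higher (adjusted p = 0.026), lost without control replicate 2 or 3 or p21 replicate 1 or 2 (0.0555 to 0.0734).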

How the data were processed

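The authors deposited 1 table of raw read counts, with genes named by symbol. The tools named in the submitters' processing notes are TopHat2 2.0.14, Bowtie2 2.2.6, featureCounts 1.4.6 and Subread, and the build is mm10. For annotation, strand and reads with several matches, the settings were not given in the sources used here. Per the labels' protocols, the TruSeq version 2 kit was used, which does not mark strand. Groups and replicate numbers came from the sample titles.

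Genes were kept by filterByExpr (14572 of 24062). Tests used edgeR 4.0.16 (R 4.3.3), quasi-likelihood, with TMM, 3 group means fitted to 9 libraries, no replicate term and Benjamini-Hochberg adjustment over all genes tested. Standard errors were taken as the log2 fold change over the square root of F. Levels are CPM after TMM, and log2 CPM used a prior count of 2. The fit was tested on simulated data. Nothing in the labels says that replicates were separate cultures, so p-values measure the spread between these libraries. Xist and Ddx3y set replicate 3 apart from replicates 1 and 2 in every group, so the spread that includes it is not technical alone. Between replicates 1 and 2 it may be technical. Libraries within a group differed by a chi-square of 10.7 to 105 per degree of freedom, so none was merged.

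The members and lists were chosen with earlier results of these data known. Named genes are the 10 members, Hsf1, Hsf2, Hsp90ab1 and Hspa9, up to 3 called genes by lowest adjusted p per list and comparison, and the 5 genes closest in pattern, of which 1 is not reported here. Hspb8, Hspb3, Cryaa and Des were named after their values were seen. Alternatives were other scalings and filters, DESeq2 1.42.0, the 2 groups compared alone, replicates 1 and 2 alone, a replicate block and each library left out. Deviations of same-numbered libraries correlated at 0.25, 0.11 and 0.55 between p16 and control. Between p21 and p16 they correlated at 0.16, 0.29 and 0.48, and between p21 and control at 0.18, 0.03 and 0.49. The labels state no pairing, so the main tests ignore it, as do all p-values given without naming an alternative. The replicate block takes equal numbers as matched across the 3 groups, from the data alone, and its counts are also given. Positions are from GENCODE M21 on GRCm38, which is mm10. Older symbols were matched through RefSeq.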

Additional observations from a re-analysis of the deposited data

How the results depend on the processing

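With 1 library left out, the log2 fold change of Hspa1a for p16 over control stayed between 0.77 and 0.83, that of Hspb1 for p21 over control between 0.45 and 0.58 and that of Bag3 between 0.41 and 0.53. The median of the 10 genes then ranged from -0.14 to 0.046 (p21 over control), -0.0088 to 0.13 (p16 over control) and -0.14 to -0.024 (p21 over p16), and moved by less than the spread between libraries under the other alternatives.

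With 1 library left out, genes called ranged from 4233 to 5776 for p21 over control (5820 with all), 219 to 875 for p16 over control (1052 with all) and 616 to 1810 for p21 over p16 (1870 with all), and the 77 other chaperone genes from 20 to 29, 0 to 4 and 1 to 7. Other alternatives beyond 1.5 times were, for p16 over control, 1808 genes and 9 of the list with DESeq2, 582 genes with replicates 1 and 2 alone, and 508 genes and 0 of the list with these 2 groups alone. With the replicate block there were 2473 genes and 15 of the list for p16 over control and 3496 and 14 for p21 over p16. For p21 over control, where deviations of same-numbered libraries correlated at 0.18, 0.03 and 0.49, the block gave 7241 genes and 36 of the list. Hspb1 and Bag3 were then past the threshold as higher and Hsph1 and Hspe1 as lower. The block ended no call of a named chaperone gene. Further calls ended with the 2 groups compared alone (Hspbp1 and Hspb2 for p21 over control, Hspa9, Hspa2, Fkbp4 and Cryab for p16 over control) or with replicates 1 and 2 alone (Hspbp1 and Hspb2 for p21 over control, Hspa9 and Hspa2 for p16 over control, Hspa2, Hspa12a and Bag5 for p21 over p16). Hspa2 for p16 over control and Hspb2 for p21 over control also did not pass with library size alone or with no filter beyond 1 read. Scaled by library size alone, p16 over control had 444 genes higher and 683 lower, against 520 and 532 with TMM.

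Hsf1 for p21 over control turned to -0.020 with library size alone and ranged from -0.016 to 0.050 with 1 library left out. Hsf2 turned to -0.026 with library size alone and -0.050 with replicates 1 and 2 alone (p21 over control), to 0.0032 with the 1 CPM filter and 0.0046 with these 2 groups alone (p16 over control), and to -0.0030 with replicates 1 and 2 alone (p21 over p16). With 1 library left out it ranged from -0.079 to 0.073, from -0.094 to 0.060 and from -0.027 to 0.055 in these comparisons. The cause was not tested. Hspa9 for p21 over p16 passed with DESeq2 (adjusted p = 0.0406). Differences of Hspa8, Hsp90aa1, Hspd1 and Dnajb1 lie within 2 standard errors and were not detectable with 3 libraries a group.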

Other observations

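The median profile of the 10 chaperone genes over the 9 libraries, each gene centred on its own mean log2 CPM, stood at -0.07, 0.0063 and -0.12 in p21 replicates 1, 2 and 3, at 0.09, 0.08 and -0.04 in p16 replicates 1, 2 and 3, and at 0.08, -0.045 and -0.16 in control replicates 1, 2 and 3. Among 14562 other genes, those close to it by root mean square distance included Fxr1 (0.033), which encodes an RNA-binding protein, Igf2bp3 (0.035), another RNA-binding protein, Usp14 (0.035), a deubiquitinase of the proteasome, and Slc25a24 (0.036), a mitochondrial carrier. Usp14 averaged 106 ± 4.83 CPM in p21, 115 ± 6.75 CPM in p16 and 108 ± 4.68 CPM in control libraries (SD, n = 3). The profile is a median over genes that moved in different ways and is close to flat, so genes near it are mostly genes that varied little.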
